A study of Ovis aries with 40 samples.

Results

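The potassium channel genes are the genes of the count table whose symbol begins with KCN, which name the pore-forming subunits of potassium channels and the smaller subunits and regulators that assemble with them. The table of 24478 genes holds 92 of them, and 84 were kept because they had at least 10 counts in at least 4 of the 40 libraries, a rule that 19963 genes of the whole table pass. The 84 comprise 15 of 16 genes of the voltage-gated KCNA to KCND families, 7 of 7 KCNH genes, 13 of 15 inward rectifier (KCNJ) genes, 13 of 14 KCNK genes, which encode background channels, 5 of 5 KCNQ genes and 31 of 35 others. The others are the calcium- and sodium-activated channels (KCNM, KCNN and KCNT), the accessory subunits (KCNAB, KCNE and KCNIP), the silent voltage-gated subunits (KCNF, KCNG, KCNS and KCNV) and KCNRG. KCNA10, KCNJ9, KCNMB2, KCNS1, KCNG4, KCNJ1, KCNK18 and KCNU1 were not kept, of which KCNMB2 had 10 or more counts in 3 libraries and KCNJ9 in 2.

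Lung RNA was sequenced from wild-type (WT) and CFTR-/- (CF) sheep at term and at 4 fetal ages, namely gestation days 65, 80, 100 and 120. Proximal and distal lung were taken from the same animals, with 2 libraries for each of 20 conditions and 40 in all. All animals were American Romney sheep. WT animals at term had been born, and the paper names the time from birth to collection as a factor in term lungs. These times and the delivery of the CF animals at term are not given here. WT animals were bred naturally, whereas CF animals came from somatic cell nuclear transfer with 1 line of male fetal fibroblasts in which exon 2 of CFTR had been targeted, so that genotype and the origin of the embryo cannot be told apart. The labels name 18 animals. They give 1 animal for both WT replicates at day 100, and the same animal for WT day 65 replicate 2 and CF day 100 replicate 2, which differ in age and genotype. The replicates were compared as 2 samples of a group. Where they share an animal label, the spread between them does not cover differences between animals, while the fits also take spread from the other conditions.

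Potassium channels set the resting voltage of the cell membrane. In epithelia that secrete chloride, including that of the fetal lung, potassium leaving through basolateral channels such as KCNN4 and the KCNQ1 and KCNE3 complex maintains the electrical driving force for chloride to leave through apical channels such as CFTR. In smooth muscle of vessels and airways, potassium channels including KCNJ8, KCNK3 and the KCNMA1 and KCNMB1 complex oppose contraction.

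Counts per library were 24670355 to 43700012 in WT before term (n = 16), 85773994 to 103139483 in CF before term (n = 16), 115937437 to 126749480 in WT at term (n = 4) and 117316905 to 119451372 in CF at term (n = 4), and KCN genes held 0.0364% to 0.0633% of them. Before term, depth and genotype cannot be told apart. CFTR itself was between 11.04 and 43.9 CPM (counts scaled by library size) in WT and between 4.999 and 34.8 in CF before term, and between 9.57 and 14.8 in WT and 3.65 and 5.13 in CF at term. Since counts over the whole gene include exons outside the targeted one, these levels do not check the labels. The labelled epithelial tissue held epithelial markers (summed levels of 422 to 1709 CPM) together with those of fibroblasts, endothelium and smooth muscle. In such mixed tissue, fewer cells of a type and less RNA per cell cannot be told apart.

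In proximal lung, CF day 65 replicate 1, CF day 80 replicate 2 and CF day 120 replicate 2 stood apart. The libraries of days 65 and 80 held summed levels of 4 heart muscle genes of 527 and 326 CPM, against at most 7.202 in the other 38 libraries. CF day 120 replicate 2 differed from its partner over the 84 genes with an SD of 1.11 on the log2 scale, against 0.275 to 0.768 in the other 19 pairs. It had 17.7 CPM of KCNK7 against 2.43 in its partner and 0.0581 CPM of KCNMA1 against 4.22. Its alveolar type 2 markers summed to 19714 CPM against 6641, and its basal cell markers to 275 against 8.01.

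Levels between genes were compared as CPM per kilobase of the counted gene length, averaged over the 40 libraries. Counted lengths come from the annotation, for example 1122 bases for KCNK3 and 20242 for KCNJ15. Their effect on the order of the genes was not tested. KCNJ8 had the highest level, 57.4 CPM per kilobase, and held 38.1% of the summed level of the 84 genes. It lies on chromosome 3 at 192966780 to 192973521 (plus strand, Oar_v4.0) and encodes the pore of the ATP-sensitive channel of vascular smooth muscle and pericytes. KCNE3 (chromosome 15, 51898230 to 51910043, minus strand), the accessory subunit that holds KCNQ1 open, followed with 13.5 CPM per kilobase. The acid-sensitive background channel KCNK3 had 5.65, the inward rectifier KCNJ2 5.43, the channel regulator KCNRG 5.05 and the background channel KCNK1 5.04 CPM per kilobase. In all, 27 genes had a mean of 1 CPM per kilobase or more, 36 lay between 0.1 and 1, and 21 lay below 0.1.

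**Figure D1:**
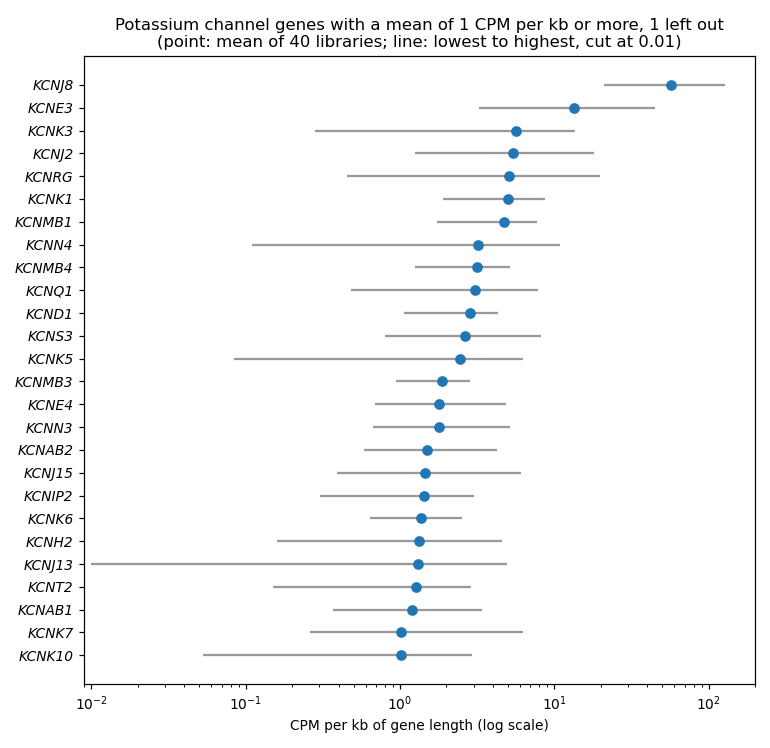
Levels of 26 of the 27 potassium channel genes with a mean of at least 1 CPM per kilobase, on a log axis. Each point is the mean of 40 libraries and each line runs from the lowest to the highest library, cut at 0.01; KCNJ8 stands highest at 57.4 and KCNE3 follows at 13.5 CPM per kilobase.

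Levels differed within the subfamilies. Among voltage-gated pores KCND1, a Kv4 pore, had 2.84 CPM per kilobase. KCNH2, the pore of the rapid delayed rectifier of the heart, led the KCNH genes with 1.33 CPM per kilobase, and KCNQ1 led its family with 3.07. Among calcium-activated channels KCNN4 had 3.19 CPM per kilobase, KCNN3 1.78 and the large-conductance pore KCNMA1 0.986, below its smooth muscle subunit KCNMB1 with 4.69. The strand setting of the counting is not stated, and 17.2% of the length of KCNMB1 overlaps a gene on the other strand, as does 42.4% of KCNJ6 and 35.8% of KCNJ16. Counts were detected in every library for 49 genes, and 33 genes had at least 10 counts in each.

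The time courses asked which genes changed with gestation. A gene was called where its adjusted p was 0.05 or less and its log2 change was at least 0.58 in size, the change over days being the highest minus the lowest daily mean. In WT proximal lung 38 of 70 genes tested were called, against 37.9% of all genes, and in WT distal lung 30 of 72 were called, against 38.8%. In CF proximal lung 9 of 82 were called, against 5.36%, and in CF distal lung 38 of 79, against 33.9%. Of the WT calls 26 were shared by both regions, which is 68.4% of the proximal and 86.7% of the distal calls. The inward rectifiers had the highest share called in WT, with 7 of 10 KCNJ genes in proximal and 8 of 10 in distal lung, against 6 of 13 and 3 of 13 KCNA to KCND genes.

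At the study's stricter limit of an adjusted p of 0.001, KCNJ13, KCNH8, KCNJ2 and KCNS3 were differentially expressed genes (DEGs) over days in WT proximal lung, and KCNJ2, KCNT2, KCNS3 and KCNG3 in WT distal lung, where 10.6% and 7.48% of all genes passed that limit. KCNJ13 and KCND3 were DEGs in CF distal lung (background 3.59%). CF proximal lung had 0 by edgeR (background 0.0254%), where 30 of 82 genes had an unadjusted p under 0.05, 36.6% against 20.2% of all genes. Without CF proximal day 120 replicate 2, which stood apart, 18 genes were called over days in place of 9, and without its partner 23, while 0 were called without both libraries that held heart muscle genes. In the same fits 12.9%, 21.1% and 0.0406% of all genes were called.

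Several channels were highest at the earliest days. KCNJ13, an inward rectifier of transporting epithelia (chromosome 1, 7936402 to 7944027, plus strand), had 7.32 and 6.91 CPM at day 65 and 6.17 and 7.67 at day 80 in WT proximal lung. At day 100 it had 1.22 and 0.151, at day 120 0.0589 and 0.166, and at term 0.104 and 0.0418 CPM. The libraries of days 65 and 80 thus did not overlap those of later days, and its change over days was 6.57 on the log2 scale (adjusted p = 0.000514). In CF distal lung KCNJ13 had 3.02 and 4.69 CPM at day 65, 1.92 and 2.97 at day 80, and at most 0.656 in any later library, with a change of 7.07 (adjusted p = 0.000677).

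KCNK5, a background channel of epithelia that is opened by alkaline pH (chromosome 20, 13035773 to 13074979, minus strand), was high in the same early libraries. In WT proximal lung it ran from 7.93 to 10.7 CPM in the 4 libraries of days 65 and 80 and from 0.468 to 1.82 in the 6 later ones (change over days 3.20, adjusted p = 0.00167). In CF distal lung it was still at 5.36 and 4.76 CPM at day 100 and at 1.56 and 1.21 at day 120 (change 3.68, adjusted p = 0.00117). The G-protein-gated rectifier KCNJ3 and the Kv4 partner KCNIP1 were also called over days in all 4 time courses, both with their highest daily mean before day 100. KCNJ3 was uneven within WT day 80, with 6.74 and 0.899 CPM in proximal lung and 5.53 and 1.52 in distal lung of the same replicates.

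KCNJ2, the strong inward rectifier of muscle and many other cells (chromosome 11, 59398451 to 59409398, minus strand), rose in mid gestation. WT distal lung had 9.14 and 9.07 CPM at day 65, 11.3 and 11.3 at day 80, 39.9 and 39.6 at day 100, 30.8 and 25.9 at day 120 and 41.2 and 39.3 at term. The 6 libraries from day 100 on were all above the 4 earlier ones. Between days 80 and 100 KCNJ2 rose by 1.81 ± 0.138 (SE, adjusted p = 0.00131) on the log2 scale in WT distal and by 1.79 ± 0.265 (adjusted p = 0.0124) in WT proximal lung. The proximal call was lost without any 1 of the 4 libraries of those days, with an adjusted p of up to 0.101, and with the 2 WT day 100 libraries, which carry 1 animal label, summed (adjusted p = 0.0715). CF distal lung had 16.9 and 18.5 CPM at day 80, 21.0 and 25.5 at day 100 and 99.8 and 46.6 at day 120.

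KCNJ8 was the other gene called between days 80 and 100 in WT, with 58.7 and 55.5 CPM at day 80 and 113 and 117 at day 100 in proximal lung. It rose by 0.99 ± 0.194 (adjusted p = 0.0382) in proximal and by 0.74 ± 0.132 (adjusted p = 0.0397) in distal lung, where the background was 1.87% and 0.996% of genes called. These calls were lost without 6 and 7 of the 10 libraries in turn, and with the WT day 100 libraries summed (adjusted p = 0.186 and 0.302). From day 65 to day 80, by contrast, 0 KCN genes were called by edgeR in any of the 4 time courses (backgrounds 0.0110%, 0.0164%, 0% and 0%), where 4 of 70, 8 of 72, 2 of 82 and 11 of 79 had an unadjusted p under 0.05, beside 5.50%, 3.99%, 1.12% and 17.4% of all genes. DESeq2 called 1, 1, 1 and 5, beside 0.726%, 0.361%, 0.147% and 1.61% of all genes.

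KCNS3, a silent subunit of voltage-gated channels (chromosome 3, 25767753 to 25814717, plus strand), rose late. WT distal lung had 9.31 and 7.77 CPM at day 100, 21.1 and 17.9 at day 120 and 33.6 and 26.5 at term. Each step was free of overlap, and from day 100 to day 120 it rose by 1.19 ± 0.206 (adjusted p = 0.0241), together with the silent subunit KCNG3 (2.16 ± 0.425, adjusted p = 0.0367). KCNK1 fell by 1.47 in the same interval (adjusted p = 0.0433), so that 3 of 72 genes were called against 2.44% of all genes. In WT proximal lung KCNH8, a voltage-gated channel mostly known from neurons, was the 1 of 70 called from day 100 to day 120 (background 2.57%), with 1.93 and 1.88 CPM before and 0.353 and 0.138 after. All 4 of these calls were lost without 4 to 8 of the 10 libraries in turn, with adjusted p values of up to 0.294, and with the WT day 100 libraries summed (0.146 to 0.275).

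**Figure D2:**
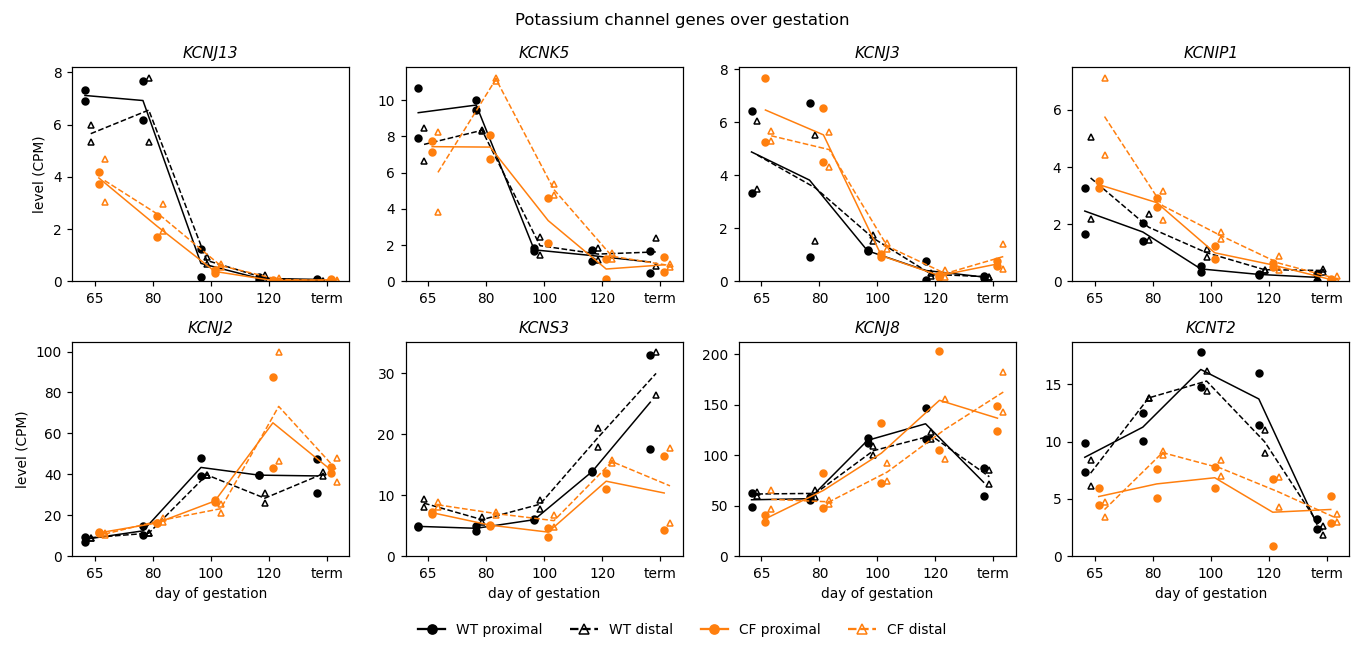
CPM of 8 potassium channel genes by day of gestation, in WT and CF and in proximal and distal lung. Points are single libraries and lines join the means of 2; KCNJ13, KCNK5, KCNJ3 and KCNIP1 were highest at the early days, while KCNJ2 and KCNS3 were higher from days 100 and 120 on in WT.

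From day 120 to term in WT, 8 genes rose and 10 fell of 70 in proximal lung (25.7% against 20.1% of all genes, of which 11.3% rose and 8.78% fell), and 7 rose and 11 fell of 72 in distal lung (25.0% against 22.3%, of which 11.8% rose and 10.5% fell). Of these, 13 were called in both regions. The WT term animals had been born, and the part of birth in these changes was not tested. KCNT2, a sodium-activated channel (chromosome 12, 5095980 to 5540456, plus strand), went from 11.5 and 15.9 CPM at day 120 to 3.25 and 2.36 at term in proximal lung, and from 8.98 and 10.98 to 2.68 and 1.82 in distal lung. It fell by 2.29 ± 0.283 (adjusted p = 0.000913) and by 2.16 ± 0.269 (adjusted p = 0.00143), the proximal value being the 1 DEG (background 2.14%), and both calls held without each library in turn.

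Among the other genes that fell from day 120 to term in WT, the Kv4 pore KCND3 fell by 2.13 ± 0.549 and 2.12 ± 0.367, its relative KCND1 by 1.22 ± 0.207 and 0.82 ± 0.199, and the small-conductance channel KCNN1 by 1.48 ± 0.412 and 1.88 ± 0.306 in proximal and distal lung. KCNJ8 fell by 0.84 ± 0.192 (adjusted p = 0.0132) and 0.61 ± 0.131 (adjusted p = 0.0113). The proximal call of KCND3 was lost without WT proximal day 120 replicate 2 or either proximal WT term library (adjusted p up to 0.124), and those of KCNJ8 without 2 of 10 libraries in each region (up to 0.0956), in 1 of the distal cases because the fold fell under the limit at an adjusted p of 0.0195. Fibroblast markers in the same WT libraries summed to between 7144 and 10302 CPM at day 120 and between 2801 and 5152 at term, and erythroid markers to between 65.7 and 111 and between 0.669 and 2.77, and the part of either was not tested. The silent subunit KCNS3 was not called in this interval, with 13.9 and 13.9 CPM at day 120 and 33.0 and 17.6 at term in proximal lung.

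KCNQ1 and several KCNK genes were among those that rose at term in WT. KCNQ1, the basolateral partner of KCNE3, had 5.12 and 3.29 CPM at day 120 and 11.2 and 14.3 at term in proximal lung, and 3.64 and 4.55 and then 12.4 and 13.8 in distal lung. It rose by 1.61 ± 0.297 (adjusted p = 0.00512) and 1.66 ± 0.305 (adjusted p = 0.00612). The distal call was lost without WT distal day 120 replicate 1 (adjusted p = 0.0582). Among the KCNK genes KCNK1 rose by 1.11 ± 0.235 and 1.41 ± 0.301, KCNK10 by 1.93 ± 0.482 and 1.85 ± 0.445 and KCNK6 by 0.90 ± 0.284 and 0.87 ± 0.234, while 0 KCNK genes fell in either region. Those calls were lost without 2, 2 and 8 of 10 libraries in turn in proximal lung (adjusted p up to 0.220, without WT proximal day 120 replicate 1) and without 2, 1 and 5 in distal lung (up to 0.146, without WT distal day 120 replicate 1). KCNJ11, the pore of the ATP-sensitive channel of the pancreas, rose by 3.30 ± 0.927 and 2.55 ± 0.456, from at most 0.647 CPM at day 120 to at least 3.20 at term. The alveolar type 1 markers, summed, ran from 4225 to 5237 CPM in the 4 WT term libraries and up to 2182 before. Alveolar type 2 markers ran from 15481 to 25235 CPM at term and up to 5182 before, and macrophage markers from 335 to 743 and up to 86.5, and the part of any of these in the changes was not tested.

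In CF distal lung 2 genes rose and 13 fell of 79 from day 120 to term (19.0% against 22.9% of all genes, of which 11.5% rose and 11.4% fell). In all, 5 genes were called in CF and in WT distal lung, KCNAB1, KCND1, KCND3 and KCNN1 among them, which is 33.3% of the CF and 27.8% of the WT calls. KCND2, a Kv4 pore like KCND3, had 62 and 32 counts at day 120 and 0 in both libraries at term, at least 15.1-fold lower with a floor of 3 counts per library. In CF proximal lung it had 69 and 28 counts at day 120 and again 0 in both term libraries, at least 16.2-fold lower, and was the 1 of 82 genes called (adjusted p = 0.0343, background 0.356%), where DESeq2 called 11 and 7.09% of all genes. That call was lost without 7 of the 10 libraries in turn (adjusted p up to 0.237) and without both libraries with heart muscle genes (adjusted p = 0.319). The large-conductance pore KCNMA1 fell by 2.63 ± 0.616 (adjusted p = 0.0196) and the Kv4 partner KCNIP2 by 1.63 ± 0.235 (adjusted p = 0.00449) in CF distal lung. In the same libraries smooth muscle markers summed to 1485 and 1496 CPM at day 120 and to 459 and 304 at term, and markers of dividing cells to 254 and 147 and then to 14.6 and 20.04. The part of either in these changes was not tested.

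KCNJ15, an inward rectifier of epithelia, rose by 2.702 ± 0.436 (adjusted p = 0.00640) and KCNN4 by 3.68 ± 0.667 (adjusted p = 0.00902) at term in CF distal lung. KCNN4 had 0.400 and 1.12 CPM at day 120 and 12.04 and 7.23 at term, with an adjusted p of 0.0563 without CF distal day 120 replicate 1. KCNJ15 had 9.38 and 12.2 CPM at day 120 and 44.2 and 97.1 at term. The term replicates also differed in KCNE3, with 35.7 and 110 CPM in distal and 26.4 and 118 in proximal lung, so that replicate 2 was high in both regions. The same held for WT day 80 replicate 2, whose KCNE3 was 92.3 CPM in proximal and 81.7 in distal lung against 29.3 and 29.7 in replicate 1. In the other intervals of CF lung, 0 KCN genes were called by edgeR from day 80 to 100 (background 0% in both regions) or from day 100 to 120 (background 0.0203% and 0.928%). An unadjusted p under 0.05 was given by 8 of 82 proximal and 11 of 79 distal genes in the first interval (3.92% and 4.04% of all genes) and by 11 and 19 in the next (7.69% and 11.8%). DESeq2 called 2 and 2 (0.721% and 0.687% of all genes) and then 5 and 14 (2.42% and 5.42%).

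CF was compared with WT at each day and averaged over the 5 days, with 20 libraries a region. On average, 14 genes were higher and 5 lower in CF of 83 in proximal lung (22.9% against 13.7% of all genes), and 12 higher and 7 lower of 84 in distal lung (22.6% against 15.2%). Of all genes, 10.1% and 9.87% were higher and 3.51% and 5.34% were lower. The higher proximal genes include KCNJ10 and KCNG1, which passed the filter on low counts in both CF time courses but in neither WT time course. A call lower in CF was thus unlikely for these genes. The calls shared by both regions numbered 14, 73.7% of either list. The 2 regions come from the same animals and are not independent. Without CF proximal day 120 replicate 2, 21 proximal genes were called on average (15.6% of all genes), and 15 without both libraries with heart muscle genes (9.68%). With all libraries thinned to the same depth, 19 and 18 proximal and distal genes were called (12.8% and 14.4%).

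**Figure D3:**
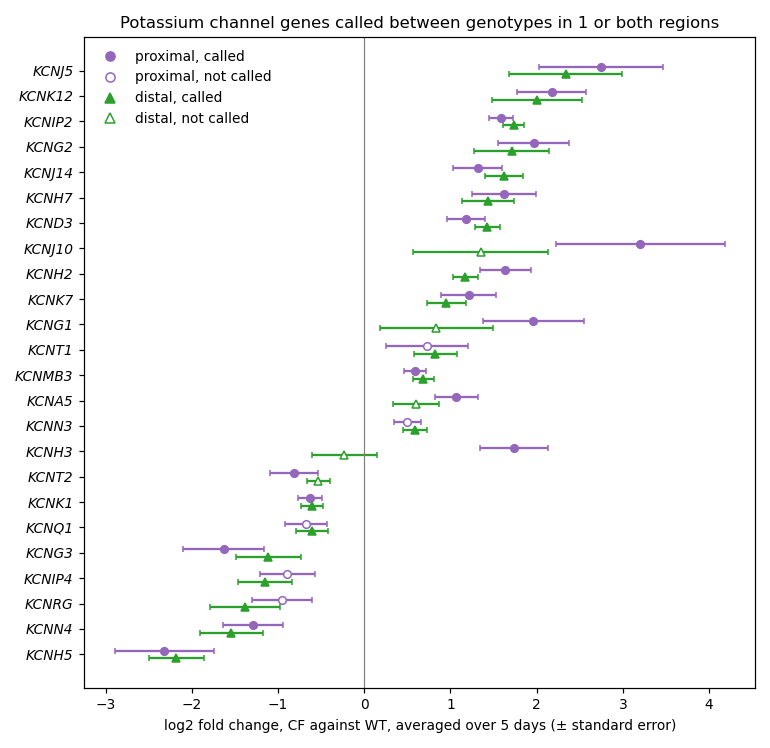
Log2 difference of CF minus WT averaged over 5 days for the 24 potassium channel genes called in 1 or both regions. Points are estimates and bars their SE from 20 libraries a region; KCNIP2 lies at 1.59 in proximal and 1.74 in distal lung, and KCNH5 at -2.32 and -2.18.

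KCNIP2, a calcium-binding subunit that brings Kv4 channels to the cell surface and slows their inactivation (chromosome 22, 21701072 to 21720023, minus strand), had the smallest p in both regions. In distal lung the 10 WT libraries ran from 2.12 to 6.87 CPM with a median of 4.23, and the 10 CF libraries from 4.69 to 21.1 with a median of 17.0. Both CF libraries were above both WT libraries on each of the 5 days in either region, although the ranges over all days overlapped. KCNIP2 was higher in CF by 1.74 ± 0.122 (adjusted p = 3.67e-07) in distal and by 1.59 ± 0.141 (adjusted p = 2.04e-05) in proximal lung, where it was the 1 DEG of the family (background 2.61%). KCNIP2, KCND3, KCNMB3, KCNJ14, KCNH2 and KCNH5 were the 6 DEGs in distal lung (background 5.94%).

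The Kv4 pore KCND3 (chromosome 1, 88199539 to 88422824, minus strand) was higher in CF in the same libraries, most of all early. The study names KCND3 and KCNH2 for the distal day 80 comparison of these samples, so that their values there are not independent evidence. Nor are their distal averages and tests of genotype by day, which include that day. In distal lung KCND3 had 3.79 and 2.47 CPM in WT against 17.3 and 16.1 in CF at day 65, and 1.51 and 1.23 against 8.13 and 6.48 at day 80. At day 100 it had 3.92 and 3.63 against 7.87 and 6.95, at day 120 2.65 and 2.95 against 3.68 and 6.37, and at term 0.676 and 0.622 against 1.01 and 0.758. CF was above WT on all 5 days, but the difference went from 2.42 ± 0.329 (adjusted p = 0.00142) at day 65 and 2.42 ± 0.334 (adjusted p = 0.00128) at day 80 to values that were not called at day 100 (0.96), day 120 (0.85) and term (0.47). Averaged over days it was 1.43 ± 0.144 (adjusted p = 6.95e-06) in distal and 1.18 ± 0.222 (adjusted p = 0.00235) in proximal lung.

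The other Kv4 genes did not all follow KCND3. KCND1 was not called between genotypes, with distal levels of 15.6 and 22.2 CPM in WT and 25.9 and 24.5 in CF at day 65. Its direction was that of KCND3, with distal medians of 16.7 CPM in WT and 22.1 in CF. Both CF libraries were above both WT libraries on 4 days in distal and 3 in proximal lung, and below them on 0. KCND2 had 0 counts in both CF distal libraries at term and 16 and 14 counts in WT, at least 4.10-fold lower in CF. KCNIP4, a Kv4 partner known from neurons, was lower in CF distal lung on average (log2 difference -1.15 ± 0.314, adjusted p = 0.0121).

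KCNH2 (chromosome 4, 112896051 to 112929330, minus strand) had 3.14 and 2.94 CPM in WT distal lung at day 65 against 15.1 and 14.1 in CF. At day 80 it had 1.99 and 1.43 against 5.03 and 8.39, at day 100 2.23 and 1.94 against 4.81 and 5.90, at day 120 2.52 and 2.702 against 1.49 and 2.40, and at term 2.40 and 2.38 against 3.85 and 3.68. CF lay above WT without overlap on 4 days and below it at day 120. The difference was 2.27 ± 0.331 (adjusted p = 0.00210) at day 65, 1.97 ± 0.331 (adjusted p = 0.00416) at day 80 and 1.35 ± 0.326 (adjusted p = 0.0287) at day 100, and was not called later. The call at day 80 was lost without WT distal day 80 replicate 2 or CF distal day 80 replicate 2 (adjusted p up to 0.0927), and that at day 100 without any 1 of its 4 libraries (up to 0.237) or with the WT day 100 libraries summed (0.208). KCNH2 averaged 1.17 ± 0.145 (adjusted p = 3.79e-05) in distal and 1.64 ± 0.296 (adjusted p = 0.00184) in proximal lung.

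Other KCNH genes did not share 1 direction. KCNH5, a channel of the ether-a-go-go type known mainly from brain (chromosome 7, 71820859 to 72210577, minus strand), ran from 0.902 to 14.8 CPM in WT distal lung with a median of 9.92, and from 0.636 to 3.56 in CF with a median of 1.56. CF was below WT on 4 of 5 days in either region, and the average was -2.18 ± 0.319 (adjusted p = 0.000166) in distal and -2.32 ± 0.573 (adjusted p = 0.0111) in proximal lung. KCNH7, a relative of KCNH2, was higher in CF by 1.43 ± 0.305 and 1.62 ± 0.372, at medians of 0.942 CPM in CF and 0.272 in WT distal lung.

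**Figure D4:**
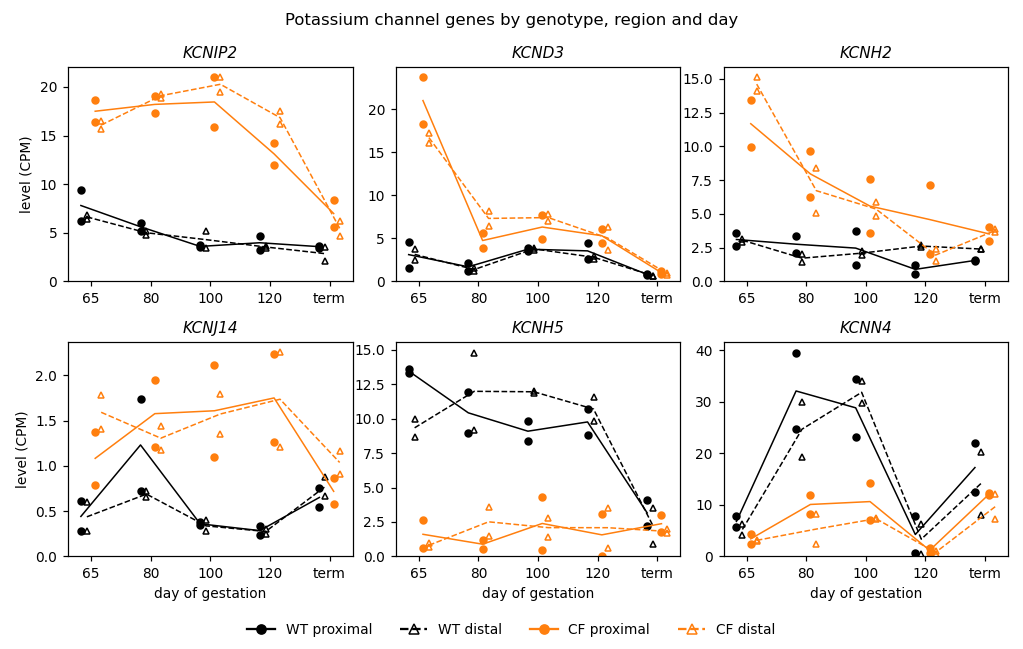
CPM of 6 potassium channel genes by day in WT and CF, for proximal and distal lung. Points are single libraries and lines join the means of 2; KCNIP2, KCND3, KCNH2 and KCNJ14 lie higher in CF on most days and KCNH5 and KCNN4 lower.

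Among inward rectifiers, KCNJ14 (chromosome 14, 54062248 to 54070612, plus strand) did not overlap between genotypes in distal lung. WT ran from 0.248 to 0.876 CPM and CF from 0.914 to 2.26, a difference of 1.62 ± 0.220 (adjusted p = 8.93e-05). In proximal lung the ranges overlapped, from 0.235 to 1.74 CPM in WT and from 0.573 to 2.23 in CF, and the difference was 1.32 ± 0.283 (adjusted p = 0.00518). KCNJ5, which forms the acetylcholine-gated channel of the heart with KCNJ3, was higher in CF by 2.75 ± 0.717 (adjusted p = 0.0148) in proximal lung. Its level was 20.6 CPM in CF proximal day 65 replicate 1 and 8.17 in CF proximal day 80 replicate 2, the libraries with heart muscle genes, and at most 0.719 in the other 4 CF proximal libraries of days 65 to 100. Without those 2 the difference was 1.25 (adjusted p = 0.140), and the calls of KCNJ10, KCNG1 and KCNT2 were lost as well.

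**Figure D5:**
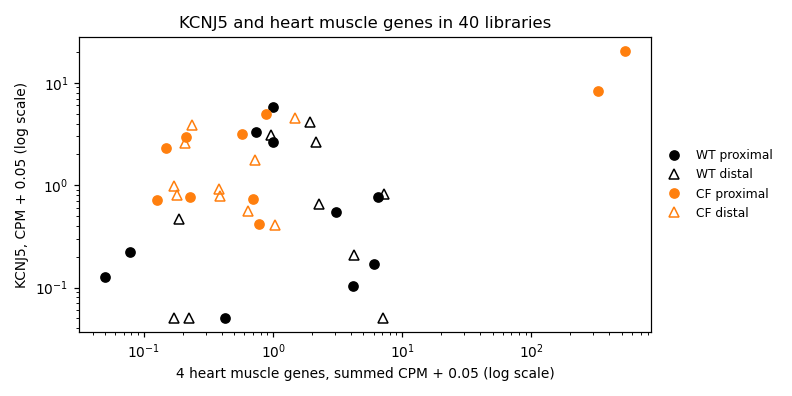
KCNJ5 against the summed level of 4 heart muscle genes, in CPM plus 0.05 on log axes, 1 point per library. CF proximal day 65 replicate 1 (20.6 CPM of KCNJ5) and CF proximal day 80 replicate 2 (8.17 CPM) stand apart at the right with 527 and 326 CPM of heart muscle genes.

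In distal lung KCNJ5 was higher in CF by 2.33 ± 0.655 (adjusted p = 0.0154), with 0 counts in both WT libraries and 92 and 78 in CF at day 80, at least 10.5-fold higher. The heart muscle genes summed to at most 7.202 CPM in every distal library. KCNJ5 was also called over days in both WT regions and in CF distal lung, and at term it had 2.602 to 5.79 CPM in WT and 1.69 to 4.94 in CF.

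KCNN4, the calcium-activated channel of the basolateral membrane, was lower in CF. It ran from 0.450 to 34.0 CPM in WT distal lung (median 13.7) and from 0.400 to 12.04 in CF (median 5.24), a difference of -1.54 ± 0.368 (adjusted p = 0.00551), and of -1.30 ± 0.347 (adjusted p = 0.0167) in proximal lung. Its range within WT was wide, since WT day 120 replicate 2 had 0.609 CPM in proximal and 0.450 in distal lung. KCNQ1 was lower in CF distal lung on average (-0.61 ± 0.184, adjusted p = 0.0211), a call lost without 6 of the 20 libraries in turn. KCNE3 was not called. The background channel KCNK1 was lower in CF as well, at -0.61 ± 0.126 (adjusted p = 0.00226) and -0.63 ± 0.143 (adjusted p = 0.00709) in distal and proximal lung, and was below WT without overlap on 4 of 5 days in both.

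The background channel genes KCNK7 and KCNK12 were higher in CF, KCNK7 by 0.95 ± 0.227 in distal and 1.21 ± 0.320 in proximal lung. KCNK12 was low, with distal medians of 0.775 CPM in CF and 0.185 in WT. Among accessory and silent subunits, KCNMB3, a subunit of large-conductance channels, was higher in CF by 0.68 ± 0.123 (adjusted p = 0.000803) in distal lung, between 5.97 and 9.19 CPM against 3.76 to 6.07 in WT. KCNG2 was higher by 1.71 ± 0.438 and 1.96 ± 0.410, whereas KCNG3 was lower, at -1.12 ± 0.376 and -1.63 ± 0.474 in distal and proximal lung. Smooth muscle markers, summed, ran from 283 to 758 CPM in WT and from 620 to 1496 in CF before term, and from 576 to 956 in WT and 271 to 539 in CF at term, and their part in these differences was not tested.

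At single days in distal lung, 6, 4, 3, 4 and 16 of 84 genes were called at days 65, 80, 100, 120 and term, against 5.05%, 5.75%, 5.07%, 4.22% and 14.4% of all genes. KCNIP2 was called on each of the 5 days, with 1.28 ± 0.269, 1.94 ± 0.274, 2.23 ± 0.278, 2.27 ± 0.280 and 0.97 ± 0.267 in order of age. At days 65 and term that call was lost without 4 and 2 of the 20 libraries in turn (adjusted p up to 0.189). KCNJ2 was higher in CF at day 120 (1.39 ± 0.269, adjusted p = 0.0104), with 99.8 and 46.6 CPM against 30.8 and 25.9 in WT, a call lost without either WT library of that day or CF distal day 120 replicate 1 (adjusted p up to 0.110).

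At term, where the depths of the genotypes were alike, 6 genes were higher and 10 lower in CF distal lung, against 7.16% and 7.23% of all genes. The WT animals had been born by then, and the part of the time after birth in these differences was not tested. KCNAB2, a cytoplasmic beta subunit of voltage-gated channels, had 14.7 and 22.4 CPM in WT and 7.39 and 6.28 in CF and was the 1 DEG (-1.42 ± 0.218, adjusted p = 0.000943, background 1.25%). KCNQ1 had 12.4 and 13.8 CPM in WT against 1.86 and 5.05 in CF (-1.90 ± 0.422, adjusted p = 0.00856), and KCNK1 had 9.02 and 13.5 against 3.56 and 4.21 (-1.51 ± 0.285, adjusted p = 0.00353). KCNJ8 was higher in CF, with 182 and 143 CPM against 72.0 and 85.7 (1.07 ± 0.227, adjusted p = 0.00676), and with an adjusted p of 0.0636 without WT distal term replicate 1. KCNQ1 and KCNK1 had risen in WT from day 120 to term and KCNJ8 had fallen. Macrophage markers summed to between 335 and 743 CPM in WT and between 72.9 and 109 in CF at term, alveolar type 1 markers to between 4225 and 5237 and between 1535 and 3066, epithelial markers to between 1488 and 1709 and between 709 and 1313, and markers of dividing cells to between 71.7 and 196 and between 14.6 and 20.04. The part of any of these was not tested.

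In proximal lung the single days gave 0, 0, 1, 1 and 2 of 83 genes (backgrounds 0.167%, 0.0885%, 0.383%, 1.35% and 6.08%). At the earliest 2 days, 11 and 12 genes had an unadjusted p under 0.05, 13.3% and 14.5% against 12.4% and 10.6% of all genes. DESeq2 called 5, 3, 3, 10 and 14 over the 5 days, beside 3.79%, 2.74%, 4.18%, 7.72% and 12.2% of all genes. Without CF proximal day 120 replicate 1 the calls at single days numbered 27 in place of 4, where 9.43% of all tests of a gene on a day were called. KCNIP2 was called at day 100 (2.36 ± 0.324, adjusted p = 0.0141) and day 120 (1.73 ± 0.317, adjusted p = 0.0280), calls lost without both libraries with heart muscle genes (adjusted p = 0.0609 and 0.0824). The day 100 call was also lost with the WT day 100 libraries summed (adjusted p = 0.238). At term KCNAB2 was lower in CF (-2.04 ± 0.419, adjusted p = 0.0125), with 14.6 and 43.3 CPM in WT against 7.63 and 6.43, as was KCNK1 (-1.68 ± 0.327, adjusted p = 0.00965), with 9.37 and 12.04 against 3.12 and 3.55. Both proximal calls were lost without WT proximal term replicate 2 (adjusted p = 0.185 and 0.0834).

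Whether the genotype difference itself changed with day was tested directly. In distal lung 4 of 84 genes were called (KCNH2, KCND3, KCNJ2 and KCNAB2), 4.76% against 4.64% of all genes, while DESeq2 called 17 and 17.2% of all genes. The daily differences of KCNH2 spanned 2.68 on the log2 scale (adjusted p = 0.0181), and this call held without each of the 20 libraries in turn. The calls of KCND3 (1.95), KCNJ2 (2.17) and KCNAB2 (1.53) were lost without 16, 12 and 11 of the 20. With the WT day 100 libraries, which carry 1 animal label, summed to 1, only KCNH2 was called (adjusted p = 0.0400), and the adjusted p values of KCND3, KCNJ2 and KCNAB2 were 0.0701, 0.0784 and 0.0617. In proximal lung 0 of 83 genes were called by edgeR (background 0.462%), 7 had an unadjusted p under 0.05 (8.43% against 9.86% of all genes) and DESeq2 called 6, beside 6.07% of all genes.

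The comparison of distal with proximal lung gave few differences. Each replicate of a genotype and day was a block, so that the WT day 100 replicates, which carry 1 animal label, were separate blocks. Averaged over the 10 conditions of genotype and day, 0 of 84 genes were called by edgeR and by DESeq2. By edgeR 11 of 20779 genes were called (0.0529%), and 5 of the 84 had an unadjusted p under 0.05 (5.95% against 3.33% of all genes). KCNS3 had an adjusted p of 0.00592 but a difference of 0.43 ± 0.0575, below the fold limit. It was higher in the distal library of 20 of 20 pairs, of which both pairs of WT day 100 carry 1 animal label. KCNN4 was lower in distal lung in 16 of 20 pairs, at -0.41 ± 0.105 (adjusted p = 0.428). At single days, 0 genes were called by edgeR or DESeq2, with 3, 4, 5, 11 and 4 at an unadjusted p under 0.05 in order of age, beside 4.38%, 3.35%, 3.09%, 5.69% and 4.84% of all genes. Without CF day 120 replicate 1, 7 were called at single days, beside 1.37% of all tests of a gene on a day.

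Other genes of potassium transport, a list of 32 pump, cotransporter, regulator and channel partner genes of which 20 to 25 were tested, moved as follows. From day 120 to term in WT, 3 rose and 3 fell of 20 in proximal lung and 2 rose and 3 fell of 23 in distal lung, beside 20.1% and 22.3% of all genes called, so that the distal count was near the background. In distal lung ABCC9, the regulatory subunit that pairs with KCNJ8, fell by 1.48 ± 0.227 (adjusted p = 0.00316), from 120 and 135 CPM to 56.7 and 35.9, and SLC12A2, the basolateral cotransporter that loads epithelial cells with chloride, fell by 1.18 ± 0.217 (adjusted p = 0.00622). In proximal lung ABCC9 and SLC12A2 moved by -1.40 ± 0.141 and -0.86 ± 0.112.

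CF against WT on average, 1 partner gene was higher and 3 lower of 24 in distal lung, and 2 higher and 2 lower of 25 in proximal lung, near the 15.2% and 13.7% of all genes called. ATP1B1, the beta subunit of the sodium pump, was lower in CF, at -0.79 ± 0.0753 (adjusted p = 4.21e-06) in distal and -0.93 ± 0.0991 (adjusted p = 5.92e-05) in proximal lung, and the kinase STK39, which activates SLC12A2, was lower at -0.72 ± 0.144 and -0.72 ± 0.143. At term in distal lung ABCC9 was higher (1.04 ± 0.225, adjusted p = 0.00745), with 102 and 84.9 CPM against 56.7 and 35.9. ABCC9 and its channel pore KCNJ8 were thus both higher in CF distal lung at term.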

How the data were processed

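The authors extracted total RNA from frozen lung tissue, prepared oligo dT libraries, sequenced 100 bp paired ends and aligned them to Oar_v4.0 with STAR (version 2.6 in the submitters' processing notes). They counted reads per gene with featureCounts 1.6.3 and deposited raw counts, with no normalization. Neither the release of the annotation nor the use of strand and mates in counting is given in the sources used here.

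Starting from the deposited counts, each time course of 10 libraries, each region of 20 libraries and all 40 libraries were fitted with 1 mean per condition in R 4.3.3 with edgeR 4.0.16. Genes were kept by filterByExpr (minimum count 10, minimum total 15) and libraries were scaled by TMM. The quasi-likelihood test (glmQLFit, glmQLFTest) was used, and p-values were adjusted by the Benjamini-Hochberg method over every gene in the fit. The test over days and that of genotype by day are F tests, and the value printed is the highest minus the lowest daily value. Levels are CPM after TMM over the 40 libraries, divided by the counted length in kilobases where genes are compared. The SE is the size of the log2 change divided by the square root of the F of its test, so that it includes spread between libraries. Floors (3 counts per library) cover counting error only. Simulated data with 200 changed genes were used to test each kind of fit.

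Members and lists were chosen with earlier results of these data known. Genes named are KCNH2 and KCND3, the 2 with the highest level in each subfamily, up to 5 called genes in each direction in the tests over days, of genotype and of region, up to 3 in single intervals and days, and the most changed partner genes. KCNH7, KCNK5, KCNK6, KCNMA1, KCNMB3, KCNN1 and the pairs of replicates that differ were described after their values were seen.

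Proximal and distal libraries with 1 number carry 1 animal label, so that the region comparison was blocked by genotype, day and replicate number. The WT day 100 replicates were separate blocks although they carry 1 animal label. Their deviations from the group means correlated from -0.35 to 0.849, and in 7 of 10 pairs of conditions above 0.1. Alternatives were DESeq2 1.42.0, RLE scaling, an adjusted p limit of 0.001, no filter, thinning, a replicate block, summed WT day 100 libraries and each library left out. Leaving out both libraries with heart muscle genes and a crossed pairing were added after seeing the data. No genome or sequence table was used here, and no sequence is printed. Some genes that the rules would name are not reported here, and the counts include them.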

Additional observations from a re-analysis of the deposited data

Results flagged for a closer look

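In distal lung, the difference between CF and WT itself changed with day in 4 of 84 potassium channel genes by edgeR's quasi-likelihood F test of the interaction, 4.76% against 4.64% of all genes, so that the count was at the background. The span between the highest and lowest daily log2 difference was 2.68 for KCNH2 (adjusted p = 0.0181), 1.95 for KCND3 (adjusted p = 0.0340), 2.17 for KCNJ2 (adjusted p = 0.0298) and 1.53 for KCNAB2 (adjusted p = 0.0284). KCNH2 and KCND3 differed most at days 65 and 80, KCNJ2 at day 120 and KCNAB2 at term. The study names KCNH2 and KCND3 for day 80 in these samples, so that their calls here are not independent evidence. The call of KCNH2 held without each of the 20 libraries in turn, whereas the others were lost without 16, 12 and 11 of them, with adjusted p values of up to 0.0889, 0.0967 and 0.119. Both WT day 100 libraries carry 1 animal label, and with these summed the calls of KCND3, KCNJ2 and KCNAB2 were lost (adjusted p = 0.0701, 0.0784 and 0.0617), while KCNH2 was still called (adjusted p = 0.0400).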

How the results depend on the processing

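Counts of potassium channel genes called depended on the limit, on the test and on single libraries. At an adjusted p limit of 0.001, in the order WT proximal, WT distal, CF proximal and CF distal, 4, 4, 0 and 2 genes were called over days in place of 38, 30, 9 and 38, and 1, 0, 0 and 0 over consecutive days in place of 21, 23, 1 and 15. CF against WT gave 1 and 6 averaged in proximal and distal lung in place of 19 and 19, and 0 and 3 at single days in place of 4 and 33. Genotype by day in distal lung gave 0 in place of 4. DESeq2 called 36, 39, 19 and 41 over consecutive days, 28 over days in CF proximal lung, 35 and 58 at single days in proximal and distal lung, and 6 and 17 for genotype by day. RLE scaling, no filter and thinning moved no count by over 1.5 times, and thinning turned the sign of KCND3 at term in proximal lung (-0.18, adjusted p = 0.909, in place of 0.32). With the WT day 100 libraries summed, 1 gene was called for genotype by day in distal lung. Without both libraries with heart muscle genes, CF proximal lung had 0 over days and 0 over consecutive days, and CF against WT 2 at single days.

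The replicate numbers of different days and genotypes come from different animals, and their deviations correlated above 0.1 in 40 of 90 pairs, so that the numbers were not taken to pair the samples. Among CF distal days 65 to 120 all 6 pairs were above 0.1 (0.135 to 0.624). With the replicate block, CF proximal lung had 5 genes over days and 0 over consecutive days, genotype by day in distal lung had 7, and no other count moved by over 1.5 times. Without its block by genotype, day and replicate number, and with crossed pairing, the region comparison gave 0 averaged and 0 at single days.

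Leaving out each library in turn gave 24 to 33, 23 to 33, 2 to 23 and 27 to 39 genes over days and 9 to 20, 10 to 30, 0 to 15 and 7 to 25 over consecutive days, in the same order. CF against WT averaged gave 15 to 22 (proximal) and 17 to 23 (distal), single days 3 to 27 and 26 to 38, and genotype by day 0 to 7 and 1 to 11. Region gave 0 to 0 averaged and 0 to 7 at single days. Counts moved by over 1.5 times without WT proximal term replicate 2 (24 over days, 12 consecutive), day 120 replicate 1 (13) or replicate 2 (9), without WT distal day 120 replicate 1 (10) or replicate 2 (15), and without CF distal day 120 replicate 1 (7) or term replicate 1 (25). All CF proximal libraries but term replicate 1 moved both counts of that time course, day 120 replicate 1 to 23 and 15 and replicate 2 to 18 and 4, the others to between 2 and 5 and to 0. Single days in proximal lung gave 27, 10 and 10 without CF proximal day 120 replicate 1, day 120 replicate 2 and term replicate 1, and genotype by day 7 and 1 without the first and the last of these. Genotype by day in distal lung moved without 13 of 20 libraries, to 11 without CF distal term replicate 1, 7 without CF distal day 120 replicate 1, 2 without WT distal day 120 replicate 1 or term replicate 1, and 1 without the other 9. Each condition had 2 libraries and 33 of the 84 genes had 10 or more counts in all 40, so that counting error weighs more in the rest. The power to detect small differences in them was not tested.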
